A study of Mus musculus with 19 samples.

Results

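Replication-dependent histone genes encode the core histones H2A, H2B, H3 and H4 and the linker histone H1. They were taken here as every gene whose symbol begins with Hist1h, Hist2h, Hist3h or Hist4h. The expression table held 73 such lines of 22958, with 67 different symbols. The list of SOX9 peaks assigned 45 of its 2943 peaks to 27 of these genes, and the list of SOX3 peaks assigned 0 of its 1367. The NFIA list of 14164 peaks names no genes, so NFIA peaks were placed by overlap and by distance.

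RNA was sequenced from glia (3 libraries) and from glial progenitor cells, called GPC (4 libraries), both derived from mouse embryonic stem cells. Chromatin immunoprecipitation (ChIP-seq) in GPC gave 1 peak list for each of the transcription factors SOX9 (3 samples), SOX3 (2 samples) and NFIA (2 samples). The labels describe 19 samples with a single growth protocol. In it, stem cells received 0.1 µM all-trans retinoic acid on fibronectin in N2B27 medium, A2B5-positive cells were sorted magnetically at day 8, and the sorted cells were grown with EGF and FGF2 at 10 ng/ml each. No genotype, strain or transgene separates the groups in the labels, and the labels do not say how the glia were made from the progenitors. The replicates are numbered with no word on separate cultures, so each p-value covers only the spread among these libraries, possibly technical. The reads assigned to genes were 17166532, 6897294 and 17369367 in glia replicates 1 to 3, and 12836998, 13037426, 22439837 and 12927131 in GPC replicates 1 to 4. GPC replicate 3 stood apart from the other GPC libraries, with a chi-square of 25.8 to 29.9 for each gene on average against them, and of 2.05 to 3.59 among the other 3. The glia had RNA of all 6 astrocyte and all 6 oligodendrocyte markers looked at, and all 12 were higher there than in GPC.

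Histone genes of this kind lie in clusters, and dividing cells transcribe them mainly in S phase, when new DNA is packed into chromatin. Their mRNAs usually end in a stem-loop and carry no poly(A) tail. The stem-loop is bound by SLBP, and the 3′ end is cut by a complex that contains the U7 snRNP. Some of these genes also make longer, polyadenylated transcripts, mainly in cells that have left the cell cycle. Other histone variants, such as H3.3 and H2A.Z, are encoded outside the clusters by genes with ordinary polyadenylated mRNAs.

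The promoters of 6 members are shown because they represent the 5 histone classes, and that of Hist3h2a because it was the member with the most reads. Each stretch runs from 120 bases before to 30 bases after the RefSeq start site on the GRCm38.p6 assembly, 5′ to 3′ on the strand of the gene. Capitals mark a CCAAT box, the TATA box letters TATAAA or the octamer ATTTGCAT, on either strand. All 7 genes lie on the plus strand. The stretches are chr13:21717508-21717657 for Hist1h3h (H3), chr13:23574261-23574410 for Hist1h2ad (H2A), chr13:23571280-23571429 for Hist1h2bg (H2B), chr13:23738687-23738836 for Hist1h1c (H1), chr13:23530924-23531073 for Hist1h4h (H4), chr3:96246565-96246714 for Hist2h3c1 (H3) and chr11:58954565-58954714 for Hist3h2a (H2A).
Hist1h3h: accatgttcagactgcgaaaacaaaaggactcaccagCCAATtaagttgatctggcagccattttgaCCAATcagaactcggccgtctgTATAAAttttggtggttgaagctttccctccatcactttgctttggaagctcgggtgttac
Hist1h2ad: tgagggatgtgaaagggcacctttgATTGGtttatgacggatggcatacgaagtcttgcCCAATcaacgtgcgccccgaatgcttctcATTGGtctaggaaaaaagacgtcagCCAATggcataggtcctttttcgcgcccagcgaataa
Hist1h2bg: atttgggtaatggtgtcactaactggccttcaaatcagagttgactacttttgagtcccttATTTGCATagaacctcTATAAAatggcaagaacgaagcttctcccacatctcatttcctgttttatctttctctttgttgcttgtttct
Hist1h1c: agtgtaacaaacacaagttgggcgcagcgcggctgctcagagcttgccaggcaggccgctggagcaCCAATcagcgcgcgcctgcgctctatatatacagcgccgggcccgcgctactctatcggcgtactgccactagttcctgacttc
Hist1h4h: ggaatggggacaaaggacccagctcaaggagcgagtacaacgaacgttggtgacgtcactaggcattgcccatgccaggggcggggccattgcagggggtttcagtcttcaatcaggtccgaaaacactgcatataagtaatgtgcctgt
Hist2h3c1: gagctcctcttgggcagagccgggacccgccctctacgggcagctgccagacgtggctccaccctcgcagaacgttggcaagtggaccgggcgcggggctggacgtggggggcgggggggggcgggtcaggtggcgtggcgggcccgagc
Hist3h2a: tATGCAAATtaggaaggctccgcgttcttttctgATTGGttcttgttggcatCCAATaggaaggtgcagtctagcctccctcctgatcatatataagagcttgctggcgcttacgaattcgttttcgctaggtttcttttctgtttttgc
The stretches of Hist1h4h and Hist2h3c1 hold none of the 3 motifs in this window. The first 3 sequences and those of Hist1h1c and Hist1h4h belong to genes with a SOX9 peak within 1 kb of the start site, and those of Hist2h3c1 and Hist3h2a to genes without one.

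Over the whole promoter window, 250 bases before to 50 after the start site, 62 windows of member genes were found for 61 of 67 RefSeq genes. Hist1h2bc, Hist1h3a, Hist1h3f, Hist2h2be, Hist2h4 and Hist3h2bb-ps had none. CCAAT, on either strand, stood in 53 of the 62 windows (85.5%), against 37.4% of all 32851 RefSeq promoter windows. All windows of H1 (6), H2A (18), H2B (16) and H3 (10) held it, and 3 of the 12 H4 windows did. TATAAA stood in 35 member windows (56.5%), against 13.6% of all windows. The octamer ATTTGCAT, which is bound by OCT1 and its relatives, stood in 7 of 18 H2A and 7 of 16 H2B windows, in no H1, H3 or H4 window, and in 1.74% of all windows. Of the SOX core letters, ACAATG stood in 4 member windows (6.45%, against 12.6% of all windows) and ACAAAG in 14 (22.6%, against 18.7%). TTGGC, one arm of the palindrome bound by NFI factors, stood in 42 (67.7%, against 46.7%), and it overlaps a CCAAT box wherever the letters are GCCAAT. Both arms, TTGGC and GCCAA with 5 bases between them, stood in 0 member windows and in 12 of all windows (0.0365%). Where their windows overlap, the motif positions of Hist1h2aa and Hist1h2ba mirror each other. So do those of Hist1h2ae and Hist1h2bg, and of Hist1h2ah and Hist1h2bk. Such H2A and H2B windows appear to hold the same stretch, so 1 match can count in both classes. The 62 windows are thus not all separate promoters. A match of letters is a description and not a measured binding site.

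SOX9, an HMG-box factor of glial specification, had peaks in and close to the bodies of the histone genes. Of the 45 SOX9 peaks assigned to them, 44 fell in the Hist1 cluster on chromosome 13 and 1 at Hist2h3c2 on chromosome 3, with 0 at Hist3 or Hist4 genes. The peak centre was within 1 kb of the start site in 31 of 45 histone peaks (68.9%), against 208 of the 2898 other SOX9 peaks (7.18%). Histone genes thereby held 13.0% of all 239 SOX9 peaks within 1 kb of a start site. The 31 peaks belong to 23 genes. Histone genes lie in clusters, and the spacing of genes was not matched in the other peaks. The 34 SOX9 peaks assigned to other genes in the Hist1 span were not compared by distance. The genome build of the peak lists is mm9, and the Hist1 peaks spanned chr13:21802193-24025981. Whether SOX9 signal differed at these genes in glia was not measured, since the ChIP samples were all GPC. The 2 input samples are labelled for NFIA, and none is labelled for SOX9 or SOX3. The SOX9 peaks are therefore given as listed, with no check against an input.

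The side of the start site set the histone peaks apart from the other start-site peaks by count. The centre lay downstream of the start in 30 of 31 histone peaks (96.8%), against 59 of 208 other SOX9 peaks within 1 kb (28.4%). The 30 centres lay 24 to 508 bp downstream with a median of 258 bp, and 39 of the 208 others (18.8%) lay in that same range. The others had a median of -100 bp, which is upstream. The exception among the histone genes was Hist1h4h, whose peak was centred upstream, at -658 bp. All SOX9 peaks were listed as 601 bp wide, and the peak held the start site itself in 19 of the 31 cases. In 30 of the 31, all but that of Hist1h4h, the centre lay inside the gene by its RefSeq length. The deposited lists give no height for SOX9 peaks, so strong and weak peaks could not be told apart.

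H3 genes had their peaks in pairs. Of 23 histone genes with a SOX9 peak within 1 kb, 8 (34.8%) had 2, against 11 of 197 other genes (5.58%). These 8 were 7 H3 genes and Hist1h2bc. The first and second centres lay 151 and 333 bp downstream of the start in Hist1h3a, 205 and 456 bp in Hist1h3b, and 223 and 448 bp in Hist1h3c. They lay at 131 and 416 bp in Hist1h3d, 111 and 370 bp in Hist1h3g, 37 and 373 bp in Hist1h3h, and 115 and 377 bp in Hist1h3i. The gap between both centres was 182 to 336 bp with a median of 259 bp, so the 601 bp windows of each pair overlapped one another. H3 genes are near-identical in coding sequence, and no alignment settings are stated in the labels, so peaks at different H3 genes may share reads. The eighth H3 gene, Hist2h3c2, had a single peak 508 bp downstream.

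The other classes mostly had single peaks. With no alignment settings stated, peaks at close copies within these classes may share reads too. H4 genes had 7 peaks within 1 kb in 7 genes. Apart from Hist1h4h, the centres lay in a narrow band, 211 bp downstream in Hist1h4k, 235 bp in Hist1h4a, 237 bp in Hist1h4i, 261 bp in Hist1h4f, 280 bp in Hist1h4j and 298 bp in Hist1h4b. H2B genes had 6 peaks in 5 genes, at 230 bp in Hist1h2bh, 260 bp in Hist1h2bg, 345 bp in Hist1h2ba (a germ-line form of H2B), 361 bp in Hist1h2bj, and 256 and 380 bp in Hist1h2bc. The linker histone genes Hist1h1c and Hist1h1d had 1 peak each, at 219 and 238 bp. H2A was the class with fewest, a single peak 24 bp downstream of the start of Hist1h2ad. It had 22 lines in the expression table, but some of them repeat a symbol. Some H2A and H2B genes appear to share a promoter stretch, and the list gives each peak to 1 gene.

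**Figure D1:**
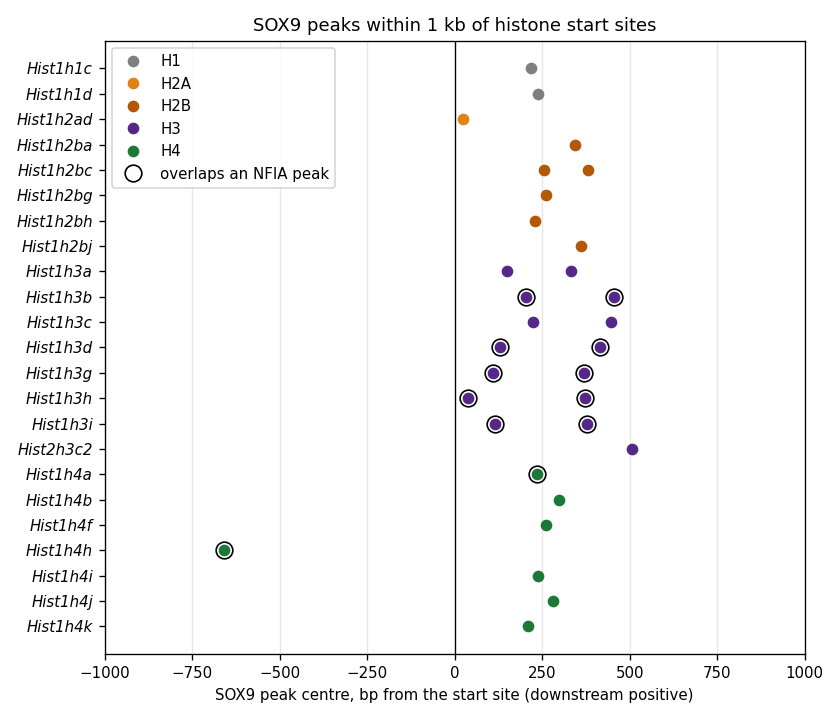
Position of each SOX9 peak centre (x axis, bp from the start site, downstream positive) for the 23 histone genes with a peak within 1 kb, 1 row per gene, coloured by class. Black rings mark overlap with an NFIA peak. All centres but that of Hist1h4h lie 24 to 508 bp downstream, and 7 H3 genes have a pair.

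NFIA, a nuclear factor I protein of the glial lineage, had peaks at part of these sites. An NFIA peak overlapped 12 of the 31 histone SOX9 peaks within 1 kb (38.7%), against 23 of the 208 other SOX9 peaks within 1 kb (11.1%). The 12 rest on 8 NFIA peaks, since both SOX9 peaks of an H3 gene met the same one, or at Hist1h3i the same 2. They lay at Hist1h3b, Hist1h3d, Hist1h3g, Hist1h3h, Hist1h3i, Hist1h4a and Hist1h4h. The authors' deposited NFIA score runs from 14 to 1677 over the list with a median of 16, and what it measures is not stated. At 11 of the 12 the score was 14 to 18, in the range that holds 71.8% of all NFIA peaks, and at Hist1h4h it was 766. Its median was 15 at the 12 histone peaks, against 57 at the 23 others.

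SOX9 peaks assigned to histone genes from beyond 1 kb are described apart from those within it. There were 14, at 6 genes (Hist1h2ai, Hist1h2br, Hist1h2ah, Hist1h2bj, Hist1h4h and Hist1h4d), 4136 to 49200 bp from the start site with a median of 10266.5 bp. By distance in either direction, no histone peak lay between the one at -658 bp from Hist1h4h and the one 4136 bp downstream of Hist1h4d. NFIA overlapped 11 of the 14 (78.6%), with a median score of 68, against 789 of the 2690 other SOX9 peaks beyond 1 kb (29.3%) with a median score of 30. Scores ran from 14 to 899 at these 11 and from 14 to 766 at the histone peaks within 1 kb, so the ranges overlapped. Several of the 11 lie upstream of 1 gene, Hist1h4h. The 2 peaks upstream of Hist1h2ai met an NFIA peak of score 865, and one at -13313 bp from the start of Hist1h4h, upstream, met one of 899. Only 13 NFIA peaks in the list scored above 700, and 6 of them lay in the span of the Hist1 cluster. Of these 6, 3 met a histone SOX9 peak. SOX9 peaks assigned to other genes in that span met an NFIA peak in 27 of 34 cases, so frequent overlap was not particular to histone peaks. Over all 45 histone peaks NFIA overlapped 23 (51.1%), against 812 of 2898 other SOX9 peaks (28.0%).

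**Figure D2:**
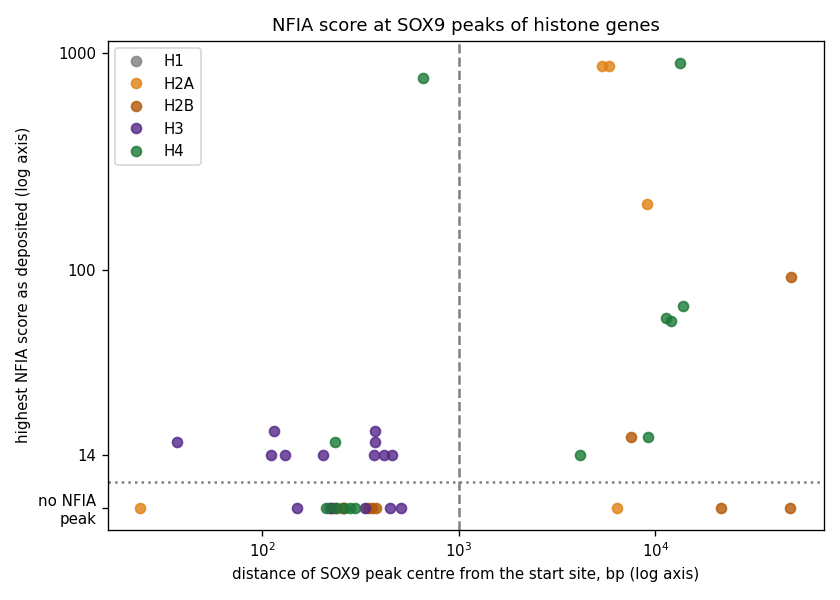
Deposited NFIA score (y axis, log scale, highest overlapping peak) against the distance of the SOX9 peak centre from the start site in bp (x axis, log scale) for the 45 histone SOX9 peaks, coloured by class. Points under the dotted line met no NFIA peak, and the dashed line is 1 kb. Within 1 kb the scores are 14 to 18 except 766 at Hist1h4h, and beyond it they reach 899.

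The genes with distant peaks neighbour tRNA genes. Of the 6 genes, 5 had a tRNA gene among the 5 RefSeq genes on each side, as did 6 of the 23 genes with a SOX9 peak within 1 kb. Over all member genes the figure was 21 of 67 (31.3%), and over 21900 protein-coding genes it was 2.96%. Hist1h2ah had 6 tRNA genes among its 10 neighbours, Hist1h4h and Hist1h2br had 4 each, and Hist1h2ai and Hist1h2bj had 2 each. This is gene order on GRCm38.p6 alone, and the distance of a tRNA gene to an mm9 peak was not measured. The same span of chromosome 13 held 34 SOX9 peaks that were assigned to other genes, of which 27 met an NFIA peak.

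SOX3, a SOX factor of neural progenitors, had no peak at the histone genes. It overlapped 0 of the 45 histone SOX9 peaks, against 318 of 2898 other SOX9 peaks (11.0%). The nearest SOX3 peak to any of the 45 was 112750 bp away, and the median distance was 348228 bp. The SOX3 list is shorter than the SOX9 list and was called separately, so the count does not compare how much of each factor was bound. The deposited SOX9 list also skips peak numbers, 14 of 92 in the Hist1 span (15.2%) and 143 of 3086 in all (4.63%), for a reason the labels do not state.

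Few reads fell in the histone genes. All 73 lines together held 14431 reads over the 7 libraries, of which Hist3h2a, Hist1h1c, Hist3h2ba, Hist1h2bc, Hist2h2be and Hist2h3c1 held 12914 (89.5%). There were 13 lines with no read, 38 with 1 to 19 reads and 22 with 20 or more. The H2B lines held 33.4% of the reads, H2A 31.1%, H1 28.0%, H3 5.56% and H4 2.04%. H3 and H4, which are present in chromatin in the same amounts as H2A and H2B, had few. The RNA kit is named in the labels, but whether poly(A) RNA was selected is not, so counts of tailed and of untailed histone transcripts cannot be told apart. By cluster, the 3 Hist3 lines held 42.5% of the reads and the 57 Hist1 lines 45.2%.

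The lengths behind the authors' RPKM values (reads scaled by gene length and by library size) differed between lines. The length that each RPKM implies was 31.9 to 2817 bp over the 60 lines with reads, and in 48 of them it was under 0.9 of the RefSeq gene length. The median implied length was 1173 bp for H1, 217 bp for H2A, 283 bp for H2B, 195 bp for H3 and 186 bp for H4. The 9 lines with an implied length over 1000 bp held 10042 reads (69.6%). They include Hist3h2a at 1949 bp, against 508 bp for its RefSeq gene, and Hist1h1c at 1434 bp, against 725 bp. The labels do not say how reads of near-identical copies were counted, so the share of each member among its close relatives is uncertain.

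Summed over all members, histone reads were higher in glia, but not in each cluster or class. They came to 163, 151 and 182 CPM (counts scaled to a common total of reads in genes) in glia replicates 1 to 3, against 117, 121, 127 and 117 in GPC replicates 1 to 4. The mean was 165 ± 15.7 in glia (SD, n = 3) and 120 ± 4.52 in GPC (SD, n = 4), a ratio of 1.37, and the groups did not overlap. The Hist1 cluster, with 57 of the 73 lines, had 62.1 ± 7.08 CPM in glia and 63.7 ± 2.62 CPM in GPC, and the groups overlapped. Hist2 had 28.7 ± 0.369 CPM in glia and 8.97 ± 2.45 CPM in GPC, and Hist3 had 74.4 ± 8.52 CPM in glia and 47.6 ± 3.70 CPM in GPC. The single Hist4 line had 4 reads in each group. The sums of the 5 classes did not move together, and 1 gene each held most reads of H1, H2A and H3. Hist2h3c1 held 509 of 606 H3 reads in glia and 103 of 197 in GPC. Hist3h2a held 2191 of 2318 H2A reads in glia and 1987 of 2164 in GPC. Hist1h1c held 1264 of 1419 H1 reads in glia and 2486 of 2615 in GPC. The sum was 14.7 ± 0.375 in glia and 3.08 ± 0.604 in GPC for H3, 55.2 ± 4.16 and 34.3 ± 4.58 for H2A, and 59.7 ± 6.50 and 37.1 ± 1.09 for H2B. For H1 it was 33.0 ± 4.87 in glia and 43.0 ± 2.23 in GPC, and for H4 2.65 ± 0.444 in glia and 2.93 ± 0.241 in GPC. H1 was lower in all glia libraries, and H4 overlapped between groups. These are bulk samples, so fewer cells of a type and less RNA per cell cannot be told apart.

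Only 14 of the 73 lines had enough reads to test, and they held 96.3% of the member reads. A line that passes only through the group where it is high is more likely to differ by selection. The counts that follow therefore describe the tested lines alone. Testing asked for at least 0.767 CPM in at least 3 libraries. Hist1h2be, Hist1h1e, Hist1h2bg, Hist2h2bb and Hist2h3c2-ps reached this in glia alone, Hist1h1d in GPC alone, and the other 8 in both groups. With edgeR's quasi-likelihood test and Benjamini-Hochberg adjustment over 13588 genes, called at an adjusted p of 0.05, 10 of the 14 rose in glia and 1 fell. Over all genes tested 35.2% rose and 35.2% fell, 70.4% in all. Of the 8 lines that passed in both groups 6 rose, 1 fell and 1 was not called, and of the 5 that passed through glia alone 4 rose. The median log2 change of the 14 was 0.93, against 0.00 for all genes tested, and it was 1.30 without GPC replicate 3. Since the 14 include the 5 lines that passed through glia alone, the filter favours a high median. With at least 50 counts in at least 3 libraries, 6 histone lines were tested and the median was 0.68. Of the 14, 11 (78.6%) had groups that did not overlap in CPM, against 69.1% of all genes.

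The 2 tested H3 lines, Hist2h3c1 and Hist2h3c2-ps of the Hist2 cluster, had the largest rises among the 14. The third H3 line of that cluster, Hist2h3b, had 1 read in glia and 2 in GPC. Hist2h3c1, which encodes H3, had 10.1, 10.7 and 10.3 RPKM in glia, against 1.04, 0.960, 2.01 and 1.16 RPKM in GPC. All glia libraries lay above all GPC libraries, with a log2 change of 2.89 ± 0.22 (SE, edgeR adjusted p = 1.31e-06). Hist2h3c2-ps carries the suffix of a pseudogene and is listed by RefSeq as protein-coding. It had 3.74, 3.88 and 3.93 RPKM in glia, against 0, 0.410, 1.07 and 0.413 in GPC, from 60 and 13 reads. Its log2 change was 2.72 ± 0.48 (edgeR adjusted p = 0.00053), 3.68 without GPC replicate 3 and 2.38 without GPC replicate 1. It passed the filter through glia alone, so this p only describes a line chosen for high glia reads. The change of Hist2h3c1 was 3.25 without GPC replicate 3. Both lines may share reads. The SOX9 peak of this cluster carries the symbol Hist2h3c2, which RefSeq gives as a synonym of the same gene as Hist2h3c2-ps.

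Among H2B genes 5 of 6 tested rose, where 35.2% of all genes tested rose. Hist1h2be, Hist1h2bg and Hist2h2bb entered the test through glia alone. Hist1h2be had 1.71, 1.58 and 1.56 RPKM in glia, against 0.384, 0.227, 0.418 and 0.153 RPKM in GPC, with a log2 change of 2.35 ± 0.28 (edgeR adjusted p = 3.41e-05) in a line that passed through glia alone. Hist2h2be had 5.26, 4.79 and 5.03 RPKM in glia, against 2.05, 2.38, 3.02 and 2.15 RPKM in GPC, with a log2 change of 1.02 ± 0.15 (edgeR adjusted p = 0.000151). Glia lay above GPC in each library of both genes. Hist1h2bc, a deeply counted H2B gene, had 44.8, 39.5 and 49.4 RPKM in glia, against 28.0, 32.3, 26.2 and 31.5 RPKM in GPC, a log2 change of 0.59 ± 0.12 (edgeR adjusted p = 0.00128). Hist3h2ba had 43.4, 37.1 and 54.4 RPKM in glia, against 34.1, 31.1, 30.8 and 35.5 RPKM in GPC, a log2 change of 0.44 ± 0.13. Its edgeR adjusted p was 0.0116, and without glia replicate 3 the log2 change was 0.28 (edgeR adjusted p = 0.0699). Hist1h2bg had 2.97, 3.26 and 3.88 RPKM in glia, against 0.932, 1.49, 2.33 and 0.579 RPKM in GPC, a log2 change of 1.14 ± 0.39 (edgeR adjusted p = 0.0220). That line also passed through glia alone. Its call rests on 80 reads and was lost without glia replicate 3 (edgeR adjusted p = 0.0967) or without GPC replicate 1 (0.0515), and under DESeq2 (0.0525).

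Hist2h2bb was the H2B line that was not called. It had 2.48, 1.76 and 1.98 RPKM in glia, against 0.157, 0.310, 2.52 and 0.938 RPKM in GPC, a log2 change of 0.84 ± 0.63 (edgeR adjusted p = 0.255). The high GPC value was that of replicate 3. Without that library the log2 change was 2.13 (edgeR adjusted p = 0.00118).

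Both tested H2A genes rose, where 35.2% of all genes tested rose. Hist3h2a, the member with the most reads, had 26.0, 25.0 and 29.0 RPKM in glia, against 15.2, 15.5, 19.4 and 14.2 RPKM in GPC, a log2 change of 0.70 ± 0.11 (edgeR adjusted p = 0.000322). Hist1h2ac had 0.841, 1.05 and 0.792 RPKM in glia, against 0.386, 0.0691, 0.422 and 0.488 RPKM in GPC, a log2 change of 1.28 ± 0.39 (edgeR adjusted p = 0.0128). The groups did not overlap for either gene. Of 9 members listed from general knowledge as having polyadenylated transcripts, 6 could be tested. Hist3h2a, Hist3h2ba, Hist1h2bc, Hist2h2be and Hist1h2ac rose and Hist1h1c fell, with a median log2 change of 0.64. Beside them, 35.2% of all genes tested rose and 35.2% fell. The 3 germ-line members listed, Hist1h1t, Hist1h2aa and Hist1h2ba, had too few reads to test.

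The linker histone genes divided. Hist1h1c, which encodes H1.2, had 20.1, 17.9 and 23.7 RPKM in glia, against 28.4, 30.6, 26.7 and 28.3 RPKM in GPC. It fell by 0.49 on the log2 scale (SE 0.10, edgeR adjusted p = 0.00169), and all glia libraries lay below all GPC libraries. Hist1h1e, which encodes H1.4, had 2.06, 1.29 and 1.87 RPKM in glia, against 0.173, 0.463, 0.439 and 0.319 RPKM in GPC, a log2 change of 2.20 ± 0.29 (edgeR adjusted p = 6.93e-05) in a line that passed through glia alone. Hist1h1d, which encodes H1.3, had 0.206, 0.103 and 0.286 RPKM in glia, against 0.276, 0.298, 0.410 and 0.274 RPKM in GPC, and its groups overlapped (log2 change -0.59 ± 0.34, edgeR adjusted p = 0.148). The single tested H4 gene, Hist1h4i, had 5.93, 2.53 and 5.86 RPKM in glia, against 5.43, 5.46, 5.57 and 6.85 RPKM in GPC, and was not called (log2 change -0.21 ± 0.26, edgeR adjusted p = 0.488).

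**Figure D3:**
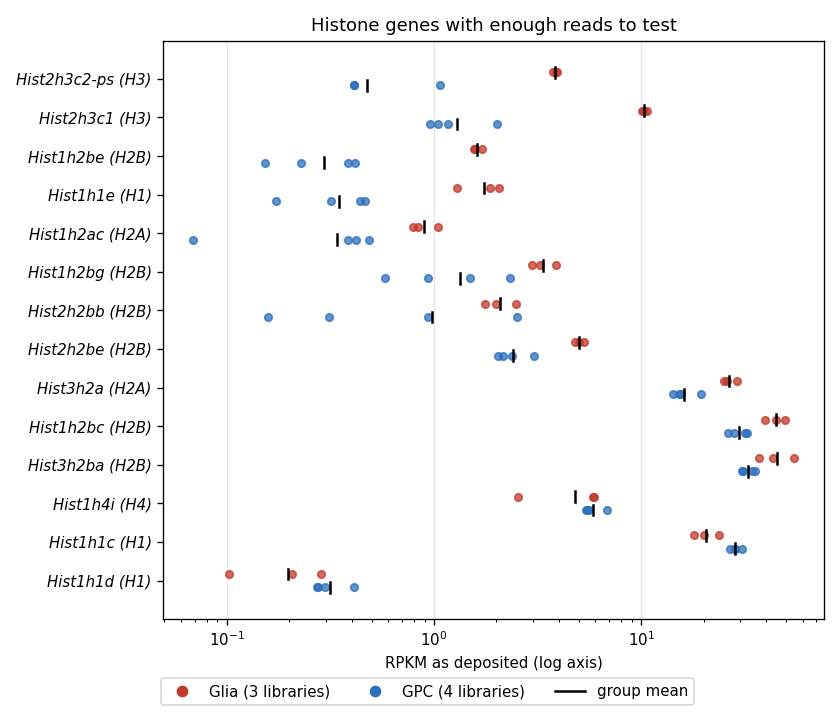
Deposited RPKM (x axis, log scale) of the 14 tested histone lines, with glia libraries above GPC libraries in each row and a bar at the group mean. A GPC value of 0 for Hist2h3c2-ps is not drawn on the log axis. Glia and GPC points separate in 11 rows and meet in Hist1h4i, Hist1h1d and Hist2h2bb.

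The lines with few reads leaned the other way. The 59 untested lines held 169 reads in glia and 371 in GPC, none more than 39 in all. Their sum was 3.38, 4.78 and 4.49 CPM in glia, against 6.31, 5.91, 6.28 and 5.57 in GPC, and the groups did not overlap. These 59 are what the count filter left. It had moved 5 lines into the tested set through glia alone and 1 through GPC alone. That selection favours a lower glia sum among the 59, and no sum over other genes with few reads was set beside it. Among untested lines H1 (3 lines) had 0.117 to 0.290 CPM in glia, against 0.467 to 0.668 in GPC. H2A (20 lines) had 0.932 to 1.44 in glia, against 1.55 to 2.49 in GPC, and H3 (10 lines) 0.870 to 0.921 in glia, against 1.16 to 1.46 in GPC. H2B and H4 overlapped between groups. Tested without the filter on low counts, 60 lines gave 13 rises and 7 falls, against 5199 rises and 4919 falls over 17895 genes. Both shares were lower among the 60 lines than over all genes. The median log2 change of the 60 was -0.40, of the opposite sign to the median of the 14.

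The 6 lines called lower there that the filter had left out were picked out after their values were seen. Hist1h1b, which encodes H1.5, had 3 reads in glia and 26 in GPC. The H2A genes Hist1h2af, Hist1h2ag and Hist1h2ah had 3, 2 and 0 reads in glia, against 32, 22 and 7 in GPC. Hist1h3a had 1 read in glia and 14 in GPC, and Hist1h2bp 3 in glia and 18 in GPC. The 3 such lines called higher had 16 reads in glia and 9 in GPC (Hist1h3d), 20 and 10 (Hist1h4h), and 14 and 5 (Hist3h2bb-ps). These counts are small enough that single reads move them.

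**Figure D4:**
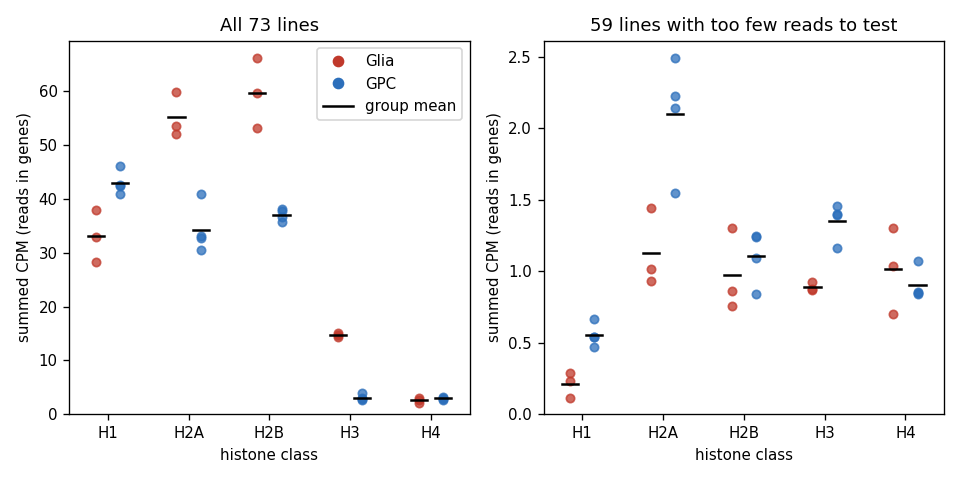
Summed histone CPM (y axes) by class, glia left of GPC, 1 point per library and a bar at the group mean, for all 73 lines (left) and for the 59 lines with too few reads to test (right). The H3 sum is 14.3 to 15.1 in glia and 2.65 to 3.97 in GPC in the left panel, and the untested H1, H2A and H3 lines are lower in glia in the right panel.

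Members with and without a SOX9 peak both included many lines with few reads. The 23 lines with a SOX9 peak within 1 kb had a median of 11 reads over all libraries, and 14 of them (60.9%) had under 20. The 50 lines without one had a median of 7.5 reads, and 37 of them (74.0%) had under 20. Of the 6 lines with a peak that could be tested, Hist1h2bc, Hist1h2bg and Hist2h3c2-ps rose, Hist1h1c fell, and Hist1h1d and Hist1h4i were not called. Of the 8 tested lines without such a peak, 7 rose and Hist2h2bb was not called. Over all genes tested 35.2% rose and 35.2% fell. Hist1h2bg and Hist2h3c2-ps with a peak, and Hist1h2be, Hist1h1e and Hist2h2bb without one, passed the filter through glia alone. Hist1h1d, with a peak, passed through GPC alone. The groups with and without a peak are small, and no comparison of them was made.

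Of 16 listed factors of histone transcription and 3′ processing, 13 fell in glia, 1 rose and 2 were not called, where 35.2% of all genes tested fell and 35.2% rose, with a median log2 change of -0.37. Slbp, the stem-loop binding protein, had 28.4 ± 2.72 RPKM in glia (SD, n = 3) and 59.2 ± 3.62 RPKM in GPC (SD, n = 4) and fell by 1.08 on the log2 scale (SE 0.09, edgeR adjusted p = 2.24e-06). Eri1, the exonuclease that trims the stem-loop, had 10.4 ± 0.553 RPKM in glia and 19.8 ± 1.10 RPKM in GPC and fell by 0.96 (edgeR adjusted p = 1.46e-06). Npat, the activator of histone transcription at histone locus bodies, fell by 0.28 (edgeR adjusted p = 0.00970). The single riser was Lsm10, a protein of the U7 snRNP, with 21.0 ± 1.36 RPKM in glia and 15.3 ± 0.675 RPKM in GPC (log2 change 0.41 ± 0.10, edgeR adjusted p = 0.00377).

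Of 18 measured chaperones 14 fell, 0 rose and 4 (Ubn1, Asf1a, Cabin1 and Atrx) were not called, beside the same 35.2% falling and 70.4% called over all genes, with a median log2 change of -0.73. Chaf1b and Chaf1a, subunits of the assembly factor that deposits histones on replicating DNA, fell by 2.45 and 1.72 (edgeR adjusted p = 7.36e-09 and 2.03e-08). Of 14 histone variants outside the clusters 11 could be tested, of which 10 fell and H2afj was not called, with a median log2 change of -0.64. H3f3a and H3f3b, which encode H3.3, fell by 0.61 and 0.53, and H1f0, a linker histone of resting cells, fell by 0.73 (edgeR adjusted p = 0.00124, 5.31e-05 and 4.26e-06). H2afz, which encodes H2A.Z, had 13.3 ± 2.30 RPKM in glia and 120 ± 54.7 RPKM in GPC, with GPC replicate 3 far below the other GPC libraries, and fell by 3.14 (SE 0.54, edgeR adjusted p = 0.00127, at most 0.0104 with any 1 library left out). H2afx and Cenpa, the centromeric H3 variant, fell by 1.88 and 2.49 (edgeR adjusted p = 3.16e-07 and 5.77e-08).

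All 24 S-phase genes fell, against 35.2% of all genes tested, with a median log2 change of -1.75. Pcna, the sliding clamp of replication, had 53.2 ± 6.50 RPKM in glia and 170 ± 19.4 RPKM in GPC. Mcm2, a subunit of the replicative helicase, fell by 2.14, and Tk1 and Ccna2, a thymidine kinase and a cyclin of S phase, fell by 3.32 and 2.24 (edgeR adjusted p = 8.41e-09, 1.86e-07 and 1.41e-08). The summed level of the S-phase list was 376 to 393 RPKM in glia and 1254 to 1459 RPKM in GPC. Markers of other cell types moved with the groups too. The 4 mesenchymal markers all rose, with a summed level of 346 to 416 RPKM in glia and 69.9 to 84.4 RPKM in GPC, and of 5 neuronal markers 4 rose (summed 66.4 to 84.5 RPKM in glia, 24.8 to 30.4 RPKM in GPC). The 6 astrocyte markers summed to 6503 to 8717 RPKM in glia and 404 to 829 RPKM in GPC, and the 6 oligodendrocyte markers to 1362 to 1883 RPKM in glia and 9.51 to 25.0 RPKM in GPC. Their part in the histone values was not tested. Of 8 progenitor markers 6 fell and 2 rose (summed 2549 to 2840 RPKM in glia, 7219 to 7823 RPKM in GPC). Of 4 microglial markers none could be tested, and C1qa and Cx3cr1 were at 0 in every library, as were 3 of the 4 pluripotency markers. Of 3 endothelial markers only Kdr could be tested, and it rose.

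**Figure D5:**
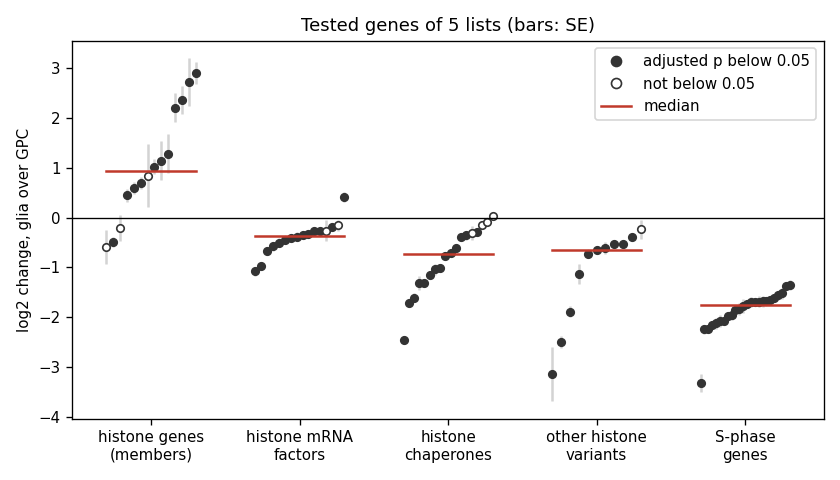
Log2 change, glia over GPC (y axis, SE bars), of the tested genes of 5 lists, sorted within each list, with the median as a red bar. Filled points have an edgeR adjusted p below 0.05. The 14 histone lines, of which 5 passed the count filter through glia alone, have a median of 0.93. The medians of the other lists lie between -0.37 and -1.75.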

How the data were processed

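Raw read counts for each gene, with no normalization, stand in the authors' deposited expression table beside the RPKM values the authors computed, per the file headers. Counts went into all tests and RPKM into levels. The peak lists (mm9, called with MACS and MACS2 per the submitters' processing notes) give 1 list per factor and hold no replicates to compare. SOX3 and SOX9 peaks carry the authors' gene and signed distance, and NFIA peaks a score as deposited by the authors. The labels name no aligner, counting tool or use of strand.

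Member lines were matched to RefSeq by accession (72) or synonym (1). Their 73 lines hold 67 symbols, 12 lines being repeated or joined. edgeR 4.0.16 in R 4.3.3 tested the counts (TMM, filterByExpr, robust quasi-likelihood fits), glia against GPC, two-sided, Benjamini-Hochberg adjusted over 13588 genes. DESeq2 1.42.0, other filters and left-out libraries served as alternatives. Start sites were placed from the deposited distances, which agreed within 2 bp in 877 of 881 genes with several peaks. Peaks shared when at least 1 bp overlapped. Implied length is reads over RPKM and the library's normalization reads. Named genes were members with a peak within 1 kb, the 12 tested members with most reads, those with the 4 largest rises and falls, uncalled members, Slbp, Npat, H2afx, H2afz, H3f3a, H3f3b, H1f0, Pcna, Mcm2, and the 2 largest changes per histone or S-phase list each way. Members called without the count filter and single marker genes were named after their values were seen. A peak symbol with no line was matched to one through RefSeq synonyms. Members, lists and rules were chosen with earlier results of these data known. The input and H3K27Ac samples were not analysed here. Promoter sequences are RefSeq's on GRCm38.p6.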

Additional observations from a re-analysis of the deposited data

Results flagged for a closer look

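In 39 sets of 4 GPC values, 4 had 1 library far from the other 3 by Dixon's test, where chance flags about 1 in 20. Hist1h4i had 2.40 CPM in GPC replicate 4, against 1.87 to 1.92 in the other GPC libraries. The other 3 concern GPC replicate 3. H2afz had 11.3 CPM there, against 39.8 to 45.5 in the others. Cenpa had 110 CPM, against 146 to 152. The summed Hist3 lines had 53.1 CPM, against 45.3 to 46.6. The groups of glia and GPC do not overlap for H2afz, Cenpa and the Hist3 sum with that library in.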

How the results depend on the processing

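The 14 tested histone lines and 16 other genes named by the rule were refitted under DESeq2, other count filters and without each library in turn. Of 352 such values 347 kept direction and call, 4 lost the call, 1 gained it and 0 changed direction. With at least 50 counts in at least 3 libraries 5 of 6 tested histone lines rose, against 4146 of 11914 genes in all. Fewer lines were tested under that setting. Without the filter 7 of 60 histone lines fell, against 4919 of 17895 genes in all. The median log2 change of the 60 was -0.40, since lines with few reads then entered. Leaving out 1 library gave 8 to 11 rises and 1 fall among the 14 histone lines. Over all genes it gave 4362 to 5159 rises and 4150 to 5114 falls of 13550 to 13872 tested. The histone median log2 change was then 0.81 to 1.30 (the highest without GPC replicate 3), and the ratio of summed histone reads 1.30 to 1.43. NFIA peaks scoring above their median overlapped 13 histone SOX9 peaks in place of 23, and 49 NFIA peaks lay within 100 kb of the placed start sites, against 8 within 1 kb. Those peak counts depend on the authors' thresholds, and depth per ChIP sample was not used here. The labels do not say whether replicate numbers pair the samples. Same-numbered glia and GPC libraries correlated at -0.0198, 0.138 and 0.0681 in their deviations from the group mean, and differently numbered ones at -0.159 to 0.0945. So few libraries cannot decide whether the samples are paired. With the replicate block, 10 histone lines rose and 1 fell with a median log2 change of 0.94. Over all 13676 genes tested there, 4542 rose and 4401 fell. Without the pairing in the same libraries, a fit added after seeing the data, the histone counts were 10 and 1 with 0.85. The counts over all genes were then 4529 and 4422.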
